A study of Mus musculus with 36 samples.

Results

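The Ifi200 genes are the mouse branch of the PYHIN family and encode proteins that join an N-terminal pyrin domain, a fold that binds other proteins, to 1 or more C-terminal HIN domains that bind DNA. Here the family means the 8 genes Mndal, Ifi203, Ifi204, Ifi205, Ifi207, Ifi209, Ifi211 and Ifi213, which were picked by gene name from a count table of 54532 genes. All 8 were found, and all 8 had enough reads to be tested in every comparison. In the annotation (GENCODE vM21, build GRCm38, of which mm10 is another name) they lie in one cluster on chromosome 1, in the interval chr1:173566283-174031810, with Ifi209 on the plus strand and the other 7 on the minus strand, and with Ifi208, Ifi203-ps and Ifi202b between them. A further 6 PYHIN genes of the same cluster are in the table, namely Aim2, Ifi202b, Ifi206, Ifi208, Ifi214 and the pseudogene Ifi203-ps.

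PYHIN genes are known as interferon-inducible genes of macrophages. A macrophage that meets lipopolysaccharide (LPS), the outer-membrane glycolipid of Gram-negative bacteria, signals through TLR4 to NF-κB and IRF3, makes interferon β, and answers that interferon through its receptor. Many interferon-inducible genes carry interferon-stimulated response elements (ISREs) near their start. Among the members, Ifi204 (p204) is a sensor of cytosolic DNA that acts upstream of STING, Ifi205 (p205) can raise Asc (Pycard) expression, Mndal is named for its likeness to the human myeloid nuclear differentiation antigen, and Ifi203 and Ifi207 encode nuclear p200 proteins. For Ifi209, Ifi211 and Ifi213 no role is stated here. Aim2, at the edge of the same cluster, is the DNA receptor that assembles an inflammasome with Asc and caspase-1.

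RNA-seq (polyA-selected, counts per gene) was performed on 36 libraries of macrophages grown for 7 days with MCSF from bone marrow of adult female C57BL/6 mice, and nothing in the labels says whether 2 libraries share a mouse. WT cells came from Bmal1 flox/flox mice without Cre, and KO cells from their LysM-Cre;Bmal1 flox/flox littermates, in which Cre is driven by a promoter of the myeloid lineage. Cells were treated for 6 h with DMSO vehicle, with 100 µM CCM, with 100 nM LPS, or with LPS and CCM together, in 3 WT and 6 KO libraries per treatment. CCM (Core Circadian Modulator) is a small molecule that binds the PASB domain of the circadian transcription factor BMAL1. Both genotypes thus carried the floxed alleles, and only the KO carried Cre.

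Library totals ranged from 13469262 to 28288923 counts. The level of Arntl, the gene that encodes BMAL1, was 7.52 to 12.9 CPM (counts relative to TMM-scaled library size) in the 12 WT libraries and 2.02 to 10.8 CPM in the 24 KO libraries, and the KO was not called against WT (vehicle, log2 change -0.34 ± 0.26 (SE), adjusted p = 1, edgeR quasi-likelihood test). Counts over the whole gene do not separate the deleted exon, so this level does not check the genotype. Il1b, used as a check of the LPS labels, was 1.90 to 2.84 CPM in WT vehicle and 3562 to 4621 CPM in WT LPS. Macrophage markers summed to between 11275 and 20073 CPM in every library and none of the 8 was at 0, whereas 5 B cell markers summed to at most 11.7 CPM. Other lists lay between these: 6 dendritic cell markers summed to 597.6 to 1641.3 CPM and 6 neutrophil markers to 254.6 to 878.5 CPM. The 5 fibroblast markers summed to 302.3 to 1659.5 CPM. KO replicate 6 stood apart in each treatment: of 11402 genes with a mean of at least 2 CPM, it was the lowest KO library in all 4 treatments for 31.8% and the highest for 24.8%, against at most 1.51% and 2.67% for any other KO replicate. The main KO results are therefore given with and without it.

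The sequence before each start site is shown first, and its part in the response of the members was not tested. RefSeq promoters of GRCm38.p6 were matched for 7 members, Mndal and Ifi203 having 2 start sites each, and were searched over the 250 bases before to 50 bases after the start. The ISRE core was searched as GAAANNGAA on both strands. It was present in 6 of the 7 members, in 7 of their 9 promoters, and in 8.56% of all 32851 promoters. Several of the member stretches resemble each other, so they are not separate occurrences to set beside that share. The lines give 29 bases around the core on the strand of the gene, 5′ to 3′, with the core in capitals; for Ifi209 the capitals mark the closest stretch before the start, which lies in the reverse orientation and has 1 mismatch.
Mndal: aagagctgggGAAATCGAAagctatgaac
Ifi203: aagagctgggGAAATCGAAagctatgaac
Ifi207: cctagccaggGAAATCGAAaattaagaac
Ifi213: cgtctctgagGAAATCGAAagctatgaac
Ifi205: ccaggccaggGAAATTGAAagctatgaac
Ifi211: caaagccaggGAAATTGAAagctatgaac
Ifi209: gaggggaactTCCTGTTTCttagctcttc

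The core read GAAATCGAA before 4 members and GAAATTGAA before Ifi205 and Ifi211. In the reverse orientation it also occurred as TTCTCTTTC before the other start of Mndal and as TTCACTTTC after the start of Ifi205, and no core was found at the other start of Ifi203. The lines of Mndal (chr1:173880205-173880233, minus strand) and of the second start site of Ifi203 (chr1:173942509-173942537, minus) are identical. The others are at chr1:173741832-173741860 (Ifi207, minus), chr1:173599327-173599355 (Ifi213, minus), chr1:174031871-174031899 (Ifi205, minus), chr1:173913065-173913093 (Ifi211, minus) and chr1:173630807-173630835 (Ifi209, plus). In GENCODE vM21 the Mndal stretch overlaps an exon of Mndal itself, that of Ifi203 lies in an intron of Ifi203, that of Ifi211 lies in an intron of Mndal, and the other 4 lie outside genes. The first base of the core lay 36 bases before the start in Mndal, 35 in Ifi203, 41 in Ifi207, 37 in Ifi211, 73 in Ifi213 and 134 in Ifi205. No member promoter held the STAT motif TTCNNNGAA, the E-box CACGTG (the motif of BMAL1-CLOCK) or the NF-κB motif GGGANTTTC, which 8.30%, 7.15% and 1.11% of all promoters held. Of the 5 other PYHIN genes with a RefSeq promoter, Ifi206, Ifi208 and Ifi214 also held the core GAAATCGAA, and Aim2 and Ifi202b held no ISRE core. The search covered these 300-base windows only, both strands of each, and a match is a description of the letters.

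Under vehicle the 8 genes were expressed at very different levels. Compared per kilobase of gene length, Ifi207 was highest in WT vehicle at 46.7 ± 3.21 CPM per kb (SD, n = 3), followed by Ifi204 at 28.1 ± 1.63, whose libraries did not reach those of Ifi207. Ifi211 (9.64 ± 1.14 CPM per kb) and Mndal (9.03 ± 1.05) were within each other's spread, then came Ifi209 (5.29 ± 0.41) and Ifi203 (3.48 ± 0.53). Ifi213 (0.211 ± 0.040 CPM per kb) and Ifi205 (0.189 ± 0.105) were close to silent, with 37 to 39 and 8 to 30 counts per WT vehicle library.

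LPS raised all 8 members in both genotypes. In WT, 8 of 8 passed the test upward (adjusted p at most 0.05, edgeR), against 30.6% of the 14501 genes tested (4441 higher and 4698 lower). With total counts alone as the scaling these numbers were 2551 and 8060, and with upper-quartile scaling 3438 and 6099, with all 8 members called higher in each. Their median log2 change was 4.89, against -0.05 over all genes tested. In KO, 8 of 8 rose as well, against 22.4% of 13648 genes (3060 higher and 3373 lower, 1825 and 5708 with total counts, and 2360 and 4396 with upper-quartile scaling), with a median of 4.84 against -0.05. Cell markers moved with LPS as well. In WT, 4 of 5 tested neutrophil markers fell and 1 rose (median -2.07), 5 of 8 macrophage markers fell and 2 rose (median -0.28), 3 of 6 dendritic cell markers rose and 1 fell (median 0.50), and the only T cell marker tested, Lck, rose by 2.14, with T cell markers summing to at most 4.95 CPM. Their part in the rise of the members was not tested. Among the members, the smallest change was that of Ifi207 and the largest were those of Ifi205 and Ifi213.

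Ifi205 moved most. It was at 0.304, 1.15 and 0.915 CPM in the 3 WT vehicle libraries and at 675, 631 and 679 CPM in the 3 WT LPS libraries. The log2 change was 9.74 ± 0.20 (SE; adjusted p = 8.7e-11), an 855-fold rise that rests on 8 to 30 counts per vehicle library. In KO it was 0.545, 1.12 and 4.55 CPM (lowest, median and highest of 6) under vehicle and 516, 605 and 724 CPM under LPS, a log2 change of 8.58 ± 0.54 (adjusted p = 2.6e-08). The groups were far apart in both genotypes.

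Ifi213 was the other member switched on from near 0. Its WT libraries read 1.40, 1.73 and 1.19 CPM under vehicle and 206, 214 and 253 CPM under LPS (log2 change 7.33 ± 0.14, adjusted p = 5.4e-11). In KO the lowest, median and highest values were 0.387, 1 and 2.5 CPM under vehicle and 151, 198 and 240 CPM under LPS (7.29 ± 0.36, adjusted p = 2.9e-09). No vehicle library of either genotype reached 3 CPM.

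Ifi204, the DNA sensor, started higher and became the most abundant member by CPM. It read 104, 103 and 93.6 CPM in WT vehicle and 1049.8, 1049.5 and 1087 CPM in WT LPS, a log2 change of 3.44 ± 0.06 (10.8-fold, adjusted p = 5.4e-11). In KO it was 60.7, 96.8 and 100.3 CPM under vehicle and 770.2, 1023 and 1140.1 CPM under LPS (3.46 ± 0.13, adjusted p = 3.4e-10). Per kilobase, Ifi211 at 329 ± 18.5 CPM per kb and Ifi204 at 298 ± 6.11 were the highest members in WT LPS.

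Ifi207 moved least. Its WT libraries read 167, 166 and 147 CPM under vehicle and 348, 314 and 329 CPM under LPS, a log2 change of 1.08 ± 0.07 (2.11-fold, adjusted p = 3.2e-07). In KO it was 58.3, 156 and 167 CPM under vehicle and 140.3, 318 and 359.7 CPM under LPS (1.07 ± 0.25, adjusted p = 0.0030). Here the KO groups overlapped: the LPS library of replicate 6 (140.3 CPM) lay below the vehicle libraries of other replicates, although Ifi207 was higher with LPS in all 6 same-numbered pairs. With counts scaled by library totals alone the KO change of Ifi207 was 0.68 (adjusted p = 0.071), a scaling that also moved the median of all genes to -0.44.

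The remaining 4 members rose between these ends. Mndal went from 28.4-35.6 to 527-554 CPM in WT (4.07 ± 0.09), Ifi203 from 20.7-27.4 to 564-578 CPM (4.65 ± 0.11), Ifi211 from 15.6-19.5 to 549.6-609 CPM (5.12 ± 0.10) and Ifi209 from 17.4-20.3 to 688-748 CPM (5.28 ± 0.08). Their adjusted p-values were at most 1.9e-10. In KO the same 4 log2 changes were 4.05 ± 0.10, 4.66 ± 0.24, 5.03 ± 0.13 and 5.21 ± 0.24. Without KO replicate 6, all 8 members still rose in KO, by 1.05 to 8.61.

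**Figure D1:**
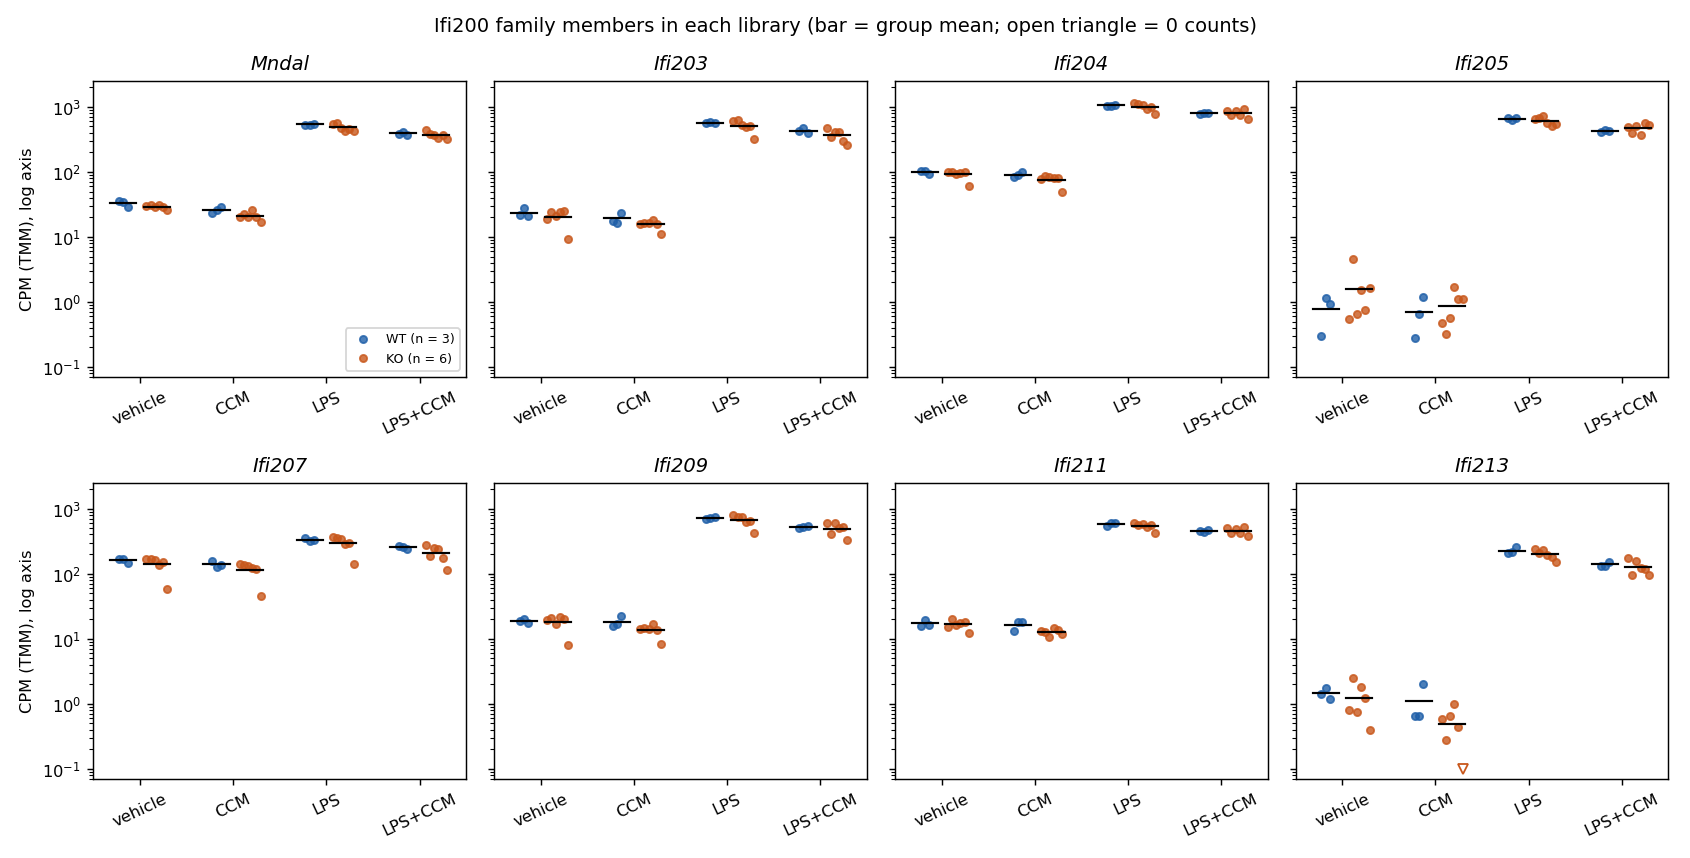
CPM of each member (log axis) in every library, by treatment, for WT (blue, n = 3) and KO (orange, n = 6), with black bars at the group means. Every library with LPS alone is at 150.7 CPM or more for Ifi205 and Ifi213 while every unstimulated library is at 4.55 CPM or less, and Ifi207 shows the smallest step, from 147-167 to 314-348 CPM in WT.

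Summed over the 8 members, the family came to 0.0354% ± 0.0025 of the TMM-scaled library size in WT vehicle and 0.469% ± 0.0121 in WT LPS (SD, n = 3). These percentages are not shares of the raw counts. Divided by unscaled library totals, the sum was 408 CPM in WT vehicle and 4139.5 CPM in WT LPS, a smaller rise. The KO sum was then 365.9 CPM under vehicle and 3765.1 CPM under LPS. Relative to the TMM-scaled size, the KO values under vehicle and LPS were 0.0318% ± 0.0071 and 0.431% ± 0.0651 (SD, n = 6). Without replicate 6 they were 0.0346% ± 0.0015 and 0.452% ± 0.0413 (SD, n = 5).

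The order of the 8 groups was nearly the same for each member. WT LPS had the highest mean of every member, and KO LPS the next highest, with overlapping libraries. The LPS+CCM groups of both genotypes came next, and the lower of these lay above every unstimulated group with no overlap for 7 members, the exception being Ifi207. The share of all genes with such an order was not counted. Among the 4 unstimulated groups each group overlapped its neighbour for all 8 members.

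CCM added to LPS lowered all 8 members in WT macrophages. All 8 members passed the test downward, against 7.78% of the 13579 genes tested (11.9% in either direction, 564 higher and 1057 lower). With total counts alone as the scaling 1539 genes were higher and 733 lower, and the 8 members were still called lower. Their median log2 change was -0.43, against 0.01 over all genes. All 3 LPS+CCM libraries were below all 3 LPS libraries for each of the 8 members, as was the case for 15.8% of genes tested. The mean level under LPS+CCM was 61.9% to 77.4% of the LPS mean, and in every member it stayed well above vehicle, from 1.60-fold for Ifi207 to 544-fold for Ifi205.

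The largest falls were in the pair that LPS switched on from near 0. Ifi213 went from 206, 214 and 253 CPM under LPS to 133, 132 and 152 CPM under LPS+CCM, and fell by 0.68 on the log2 scale (SE 0.08, adjusted p = 0.00042). Ifi205 went from 675, 631 and 679 to 418, 440.1 and 432 CPM, and fell by 0.61 (SE 0.05, adjusted p = 4.6e-05). Neither pair of groups overlapped.

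Ifi204 read 1049.8, 1049.5 and 1087 CPM under LPS and 774, 809.7 and 792 CPM under LPS+CCM, and fell by 0.42 (SE 0.04, adjusted p = 0.00014). Ifi209 read 688, 708 and 748 CPM and then 496, 525 and 531 CPM, and fell by 0.46 (SE 0.05, adjusted p = 0.00018). Mndal read 529, 527 and 554 CPM and then 385, 416 and 375 CPM, and fell by 0.45 (SE 0.05, adjusted p = 0.00028). These 3 genes thus kept between 72.4% and 74.6% of their LPS level.

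The smallest falls were those of Ifi203, Ifi211 and Ifi207. Ifi203 read 564, 578 and 573 CPM under LPS and 421, 471 and 401 CPM under LPS+CCM, a fall of 0.40 (SE 0.06, adjusted p = 0.0014). Ifi211 went from 549.6, 609 and 604 to 449.8, 433 and 464 CPM, and fell by 0.38 (SE 0.05, adjusted p = 0.00082). Ifi207 went from 348, 314 and 329 to 266, 259.9 and 242 CPM, and fell by 0.36 (SE 0.06, adjusted p = 0.0022). The LPS and LPS+CCM libraries stayed apart for each of these 3.

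Same-numbered libraries of the pair deviated together here, and a fit blocked on that number called all 8 again, with 1417 genes higher and 1803 lower. In a single fit over all 36 libraries, where the KO libraries enter the estimate of the spread, the 8 log2 changes were -0.69 to -0.36. None was called there (adjusted p = 0.25 to 1), and over all genes 17 of 15720 were called, 6 higher and 11 lower. Cell markers were read in the same WT comparison. Of the 8 macrophage markers Csf1r was called higher (0.27) and Mertk (-0.21) and Fcgr1 (-0.31) lower, with a sum of 15942 to 16514 CPM under LPS and 16648 to 16963 CPM under LPS+CCM. Of 5 tested neutrophil markers S100a9 was called lower (-0.28), and the sum of the 6 on that list was 352 to 386 CPM and then 290 to 354 CPM. The 6 dendritic cell markers summed to 1417 to 1497 CPM under LPS and to 1290 to 1328 CPM under LPS+CCM, with none of the 5 tested called. Their part in the fall of the family was not tested, and in bulk RNA fewer cells of a type and less RNA per cell cannot be told apart.

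**Figure D2:**
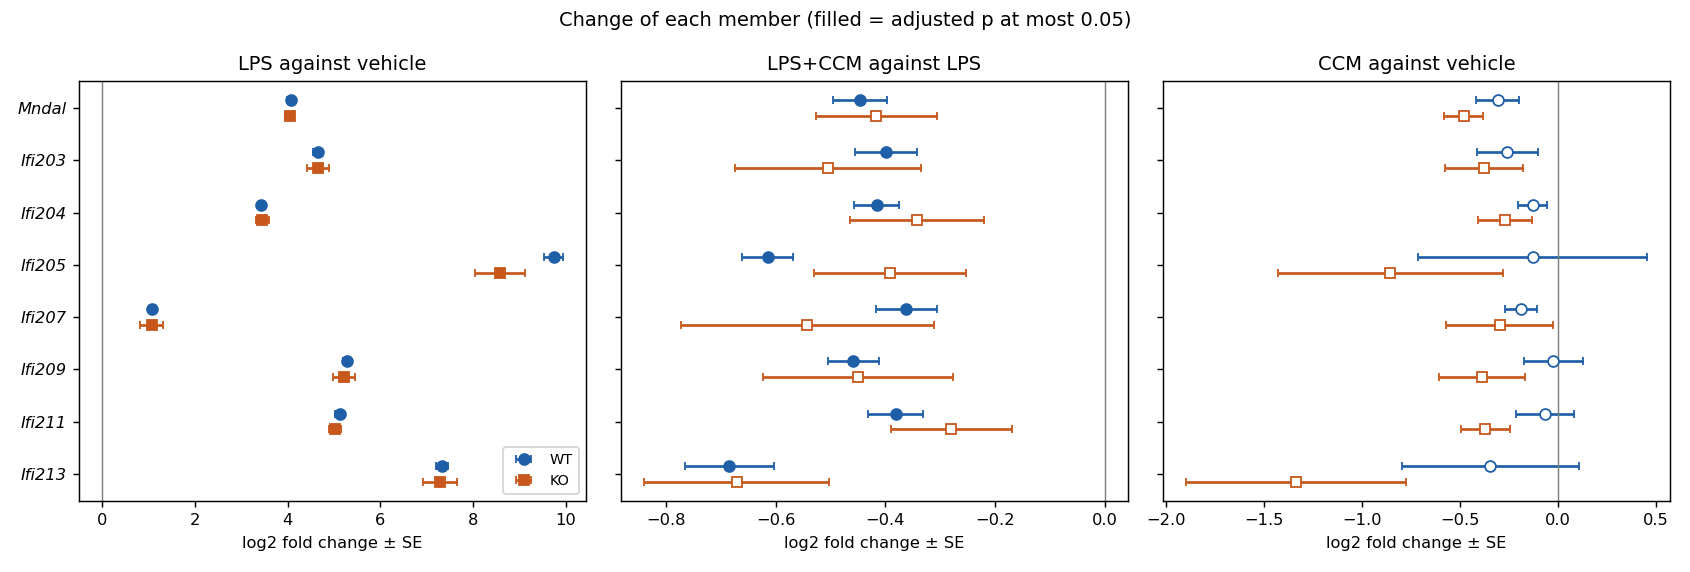
log2 fold change ± SE (edgeR) of each member for LPS against vehicle, LPS+CCM against LPS, and CCM against vehicle, in WT (blue circles) and KO (orange squares), filled where the adjusted p is at most 0.05. All 16 LPS changes are filled, the 8 WT changes of LPS+CCM lie between -0.68 and -0.36 and are filled, and the KO changes lie between -0.67 and -0.28 with longer error bars and are open.

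In KO macrophages the addition of CCM to LPS was tested in the same way, against the KO LPS libraries. No member was called at the adjusted threshold by edgeR, where 0.105% of 13386 genes were called lower. All 8 had an unadjusted p under 0.05 with a lower level, which held for 4.65% of genes. The median log2 change was -0.43, and the range was -0.67 (Ifi213, SE 0.17, adjusted p = 0.16) to -0.28 (Ifi211, SE 0.11, adjusted p = 0.50). All 6 same-numbered pairs fell for 7 members, against 9.17% of genes that fell in all 6, and Ifi205 fell in 5 of 6.

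The libraries of the 2 KO groups ran into each other. Ifi213 was 151, 198 and 240.1 CPM under LPS (lowest, median, highest) and 95.9, 119.8 and 176 CPM under LPS+CCM. Mndal was 429, 465 and 565 CPM and then 324, 369.9 and 438 CPM, a change of -0.42 (SE 0.11, adjusted p = 0.19). Ifi207 was 140.3, 318 and 359.7 CPM and then 115, 216 and 272 CPM, a change of -0.54 (SE 0.23, adjusted p = 0.56). The same held for all 8 members.

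How many KO members passed moved with the fit. DESeq2 called 2 (Ifi213 and Mndal, with 1.08% of genes lower) and limma-voom with quality weights called 8 (3.71% lower). Without KO replicate 6, edgeR called none (0.95% of genes lower), with adjusted p-values from 0.064 to 0.16. The difference between genotypes in the effect of CCM under LPS was -0.16 to 0.24 on the log2 scale (KO minus WT; -0.18 to 0.20 without replicate 6) and no member was called (adjusted p = 1, and 0 of 8 at an unadjusted p under 0.05; 0% of 14546 genes called by edgeR, and no member called by DESeq2 or voom). For Ifi205 the 95% interval of that difference was -0.18 to 0.66 and for Ifi207 -0.88 to 0.55. The upper end exceeded the size of the estimated WT fall for these and in all for 6 of the 8 members. For Mndal (-0.29 to 0.38, beside a WT fall of 0.45) and Ifi213 (-0.50 to 0.56, beside a WT fall of 0.68) the interval ended below that size. The WT fall has its own error, so these intervals do not show whether the KO change was 0. The 95% interval of the KO change itself, not adjusted for the number of genes, lay below 0 for all 8 members. It was -0.69 to -0.09 for Ifi205 and -1.04 to -0.05 for Ifi207.

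Without LPS, CCM was compared with vehicle in WT. No member was called by edgeR (0.057% of 14024 genes called), 2 of 8 (Ifi207 and Mndal) were lower at an unadjusted p under 0.05 (5.21% of genes), voom called none, and DESeq2 called none of the 6 to which it gave an adjusted p, which it left out for Ifi205 and Ifi213. Mndal read 35.6, 34.3 and 28.4 CPM under vehicle and 23.1, 26.2 and 29.2 CPM under CCM (-0.31 ± 0.11, adjusted p = 0.41). Ifi209 read 18.6, 20.3 and 17.4 CPM and then 15.4, 16.6 and 22.7 CPM (-0.02 ± 0.15, adjusted p = 0.97). The 8 estimates ranged from -0.35 to -0.02, and the groups overlapped for all 8.

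In unstimulated KO cells the estimates were also below 0 for all 8 members, with a median of -0.38 against 0.01 for all genes. The edgeR fit called none of the 8 (0% of 13799 genes called), while DESeq2 called 1, Mndal (0.188% of genes lower), and voom 6 (1.04% lower). At an unadjusted p under 0.05, 1.46% of genes were lower, among them Ifi211, Ifi213 and Mndal. Same-numbered KO libraries of vehicle and CCM deviated together (correlation 0.361 to 0.903, against a median of 0.265 between unlike numbers). The fit with the replicate number as a block called 4 members lower, Mndal, Ifi204, Ifi207 and Ifi209 (1.7% of genes lower). Without KO replicate 6 and without the block 4 were called lower, Mndal, Ifi203, Ifi204 and Ifi209 (0.489% of genes lower), and with both changes 6 were (2.78%).

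Mndal was the member whose KO groups stood apart. It was 26.0, 29.3 and 31.4 CPM (lowest, median, highest) in KO vehicle and 16.8, 20.4 and 25.9 CPM in KO CCM, so that no library overlapped, which held for 0.217% of genes in that direction. Its log2 change was -0.48 ± 0.10 (adjusted p = 0.52), and adjusted p = 0.0015 with the replicate block. Ifi213, with a change of -1.34 ± 0.56, had a median of 1 CPM under vehicle and 0.509 CPM under CCM, with 1 library at 0 counts.

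Whether CCM acted differently with and without LPS was tested as an interaction. In WT the 8 estimates were all below 0, from -0.53 to -0.15, and edgeR called none (2.09% of 14747 genes, or 308, called). The median of the 8 was -0.32, and it was -0.07 without WT replicate 3, -0.42 without replicate 2 and -0.40 without replicate 1. The number of genes called was then 8, 0 and 174. Ifi204 (-0.30 ± 0.09, adjusted p = 0.095) and Ifi209 (-0.45 ± 0.15, adjusted p = 0.16) were the 2 members called by DESeq2 (3.83% of genes lower), and 3 of 8 were lower at an unadjusted p under 0.05 (7.76% of genes). In KO the estimates ran from -0.23 to 0.69 (-0.25 to 0.66 without replicate 6), no member was called by edgeR, DESeq2 or voom, and none had an unadjusted p under 0.05 (0.00685% of 14588 genes called).

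The genotypes were compared under vehicle and under LPS. Between KO and WT, edgeR called 0 of 8 under vehicle (0% of 14385 genes called, 0.82% at an unadjusted p under 0.05) and 0 of 8 under LPS (0% of 13794, and 0.761%), with no member at an unadjusted p under 0.05 and none called by DESeq2 or voom. The median log2 difference was -0.10 under vehicle and -0.11 under LPS. Without KO replicate 6 these medians were -0.01 and -0.05. Ifi205 was the member with the largest estimate under vehicle, 1.05 ± 0.73, with 0.304 to 1.15 CPM in WT and 0.545 to 4.55 CPM in KO, where the highest value belongs to replicate 2 alone. The genotype by LPS interaction was called for no member (0% of 15093 genes called), and for Ifi205 it was -1.13 with a 95% interval of -2.58 to 0.31. Both values of Ifi205 moved with 1 library: without KO replicate 2 they were 0.40 (KO against WT, vehicle) and -0.47 (interaction). Without WT replicate 1 they were 0.67 and -0.73, and with voom 0.43 and -0.45, none of them called. Over all alternative runs the KO against WT value under vehicle ranged from 0.40 to 1.41 and the interaction from -1.515 to -0.45.

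Within the KO, the members stood differently in replicate 6. Ifi203, Ifi204, Ifi207, Ifi209 and Ifi213 were lowest there in all 4 treatments, 5 of 8 members beside 31.8% of all genes compared. Ifi207 stood at 34.4% to 47.6% of the median of the other 5 replicates, Ifi203 at 38.4% to 68.6%, Ifi209 at 39.9% to 64.1% and Ifi204 at 61.1% to 73.9%. Mndal was nearer the others at 81.9% to 90.9% and was lowest in 3 of the 4 treatments, as was Ifi211 at 71.9% to 89.3%. Ifi205 was lowest in none of the treatments, at 85.3% to 219%.

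The same replicate also differed in cell markers. The 6 neutrophil markers summed to 839 to 879 CPM in its 4 libraries and to 255 to 732 CPM in the other KO libraries. Of these 6, S100a8, S100a9, Mpo and Elane were highest there in all 4 treatments, beside 24.8% of all genes compared. Of the 8 macrophage markers, Adgre1, Csf1r, Mertk and Mrc1 were lowest there in all 4 treatments, beside 31.8% of genes, and Fcgr1 was highest. The macrophage sum was 11275 to 13387 CPM against 11478 to 20073. Cd79b (B cell), Cd3e and Cd3d (T cell) and Hba-a1 (erythroid) were also highest there in all 4, on lists that summed to at most 11.7 CPM. No dendritic cell or fibroblast marker was highest or lowest there in all 4. No marker of the neutrophil or macrophage list was at 0 across the 36 libraries. Their part in the low levels of Ifi207, Ifi203, Ifi209 and Ifi204 was not tested.

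**Figure D3:**
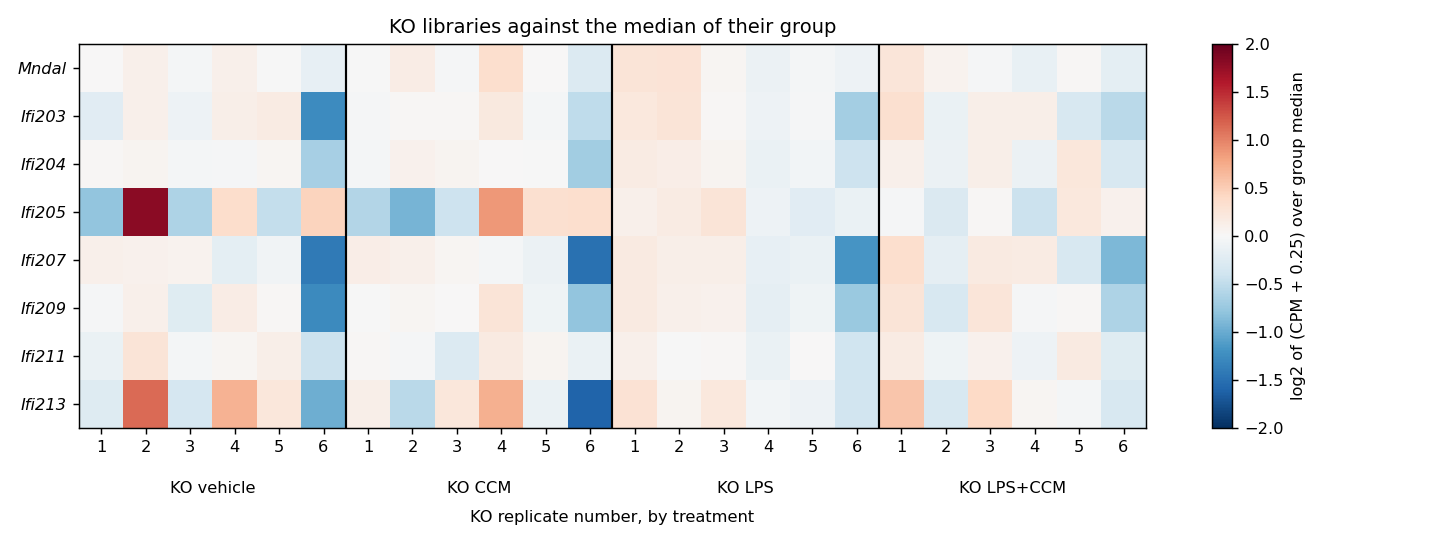
Each KO library against the median of its treatment group, as log2 of (CPM + 0.25) over (median + 0.25), for the 8 members (rows) and 6 replicates in 4 treatments (columns). Replicate 6 is the lowest library in every treatment for Ifi203, Ifi204, Ifi207, Ifi209 and Ifi213 and in none for Ifi205, and replicate 2 under vehicle is the one strongly red cell of Ifi205 (4.55 CPM).

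The other PYHIN genes of the cluster were tested in the same way. Of the 6 in the table, 5 were tested for LPS and all 5 rose in both genotypes, beside 30.6% of genes in WT and 22.4% in KO. Ifi206 rose from 0.987 ± 0.251 to 214 ± 19.8 CPM in WT (log2 change 7.76 ± 0.14) and Ifi208 from 0.5 ± 0.263 to 100.2 ± 8.38 CPM (7.72 ± 0.18). Aim2 rose least, from 34.9 ± 3.80 to 81.0 ± 1.96 CPM (1.24 ± 0.08). Ifi203-ps went from 1.46 to 25.1 CPM (4.16 ± 0.16) and Ifi214 from 0.086 to 6.36 CPM, whereas Ifi202b was at 0 counts in all 3 WT vehicle libraries and at 9 to 15 counts under LPS.

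CCM under LPS in WT lowered 4 of those 5, beside 7.78% of all genes tested. Ifi208 fell by 0.93 (SE 0.08, adjusted p = 7.2e-05), Ifi206 by 0.68 (SE 0.07, adjusted p = 0.00015), Ifi203-ps by 0.63 (SE 0.09, adjusted p = 0.0012) and Aim2 by 0.49 (SE 0.06, adjusted p = 0.00061), and Ifi214 was not called (-0.40 ± 0.19, adjusted p = 0.21). None of the PYHIN genes outside the 8 was called in the single fit over 36 libraries (adjusted p = 0.30 to 1), where 0.07% of all genes were called lower. In KO none of the 5 was called by edgeR (adjusted p = 0.096 to 0.68). Aim2 and Ifi208 were called lower without replicate 6 (0.95% of genes lower) and by DESeq2 (1.08%), and voom called 4 (3.71%). Aim2 was the PYHIN gene called in the LPS by CCM interaction in WT: the interaction was -0.50 ± 0.11 (adjusted p = 0.027), its CPM without LPS being 34.9 ± 3.80 and 34.5 ± 1.65. Aim2 was not called in that interaction without WT replicate 2 (adjusted p = 0.31), without WT replicate 3 (0.22), with total counts alone (0.053) or in the single fit over 36 libraries (1).

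**Figure D4:**
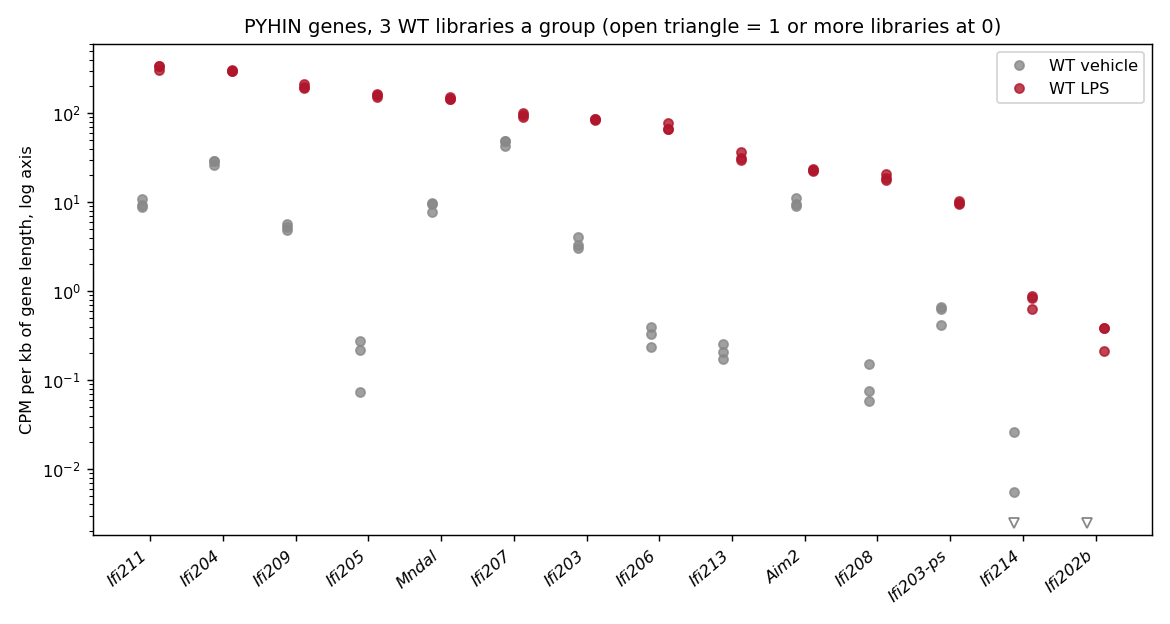
CPM per kb of gene length (log axis) of the 14 PYHIN genes in the 3 WT vehicle (grey) and 3 WT LPS (red) libraries, ordered by the LPS mean, with open triangles where 1 or more libraries are at 0. Ifi207 has the highest resting level (46.7 CPM per kb) and the smallest gap, whereas Ifi205, Ifi206, Ifi208, Ifi213 and Ifi203-ps rise from below 1 CPM per kb.

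Lists of genes of the pathways around the family give the setting. With LPS in WT, 4441 of the 14501 genes tested (30.6%) rose and 4698 fell. Of 15 tested genes of cytosolic DNA sensing and the inflammasome, 11 rose and 2 fell there. The gene with the largest change among those called was Il1b (10.66 ± 0.18), which encodes the cytokine cut by caspase-1, and the one with the smallest was Pycard, the adaptor Asc, which fell by 0.42 (SE 0.09, adjusted p = 0.0030). Of 15 tested genes of type I interferon signalling, 14 rose, from 0.60 ± 0.07 for Jak1, a receptor kinase, to 8.34 ± 0.72 for Ifnb1, which encodes interferon β and was close to 0 under vehicle. The list medians were 2.33 and 3.08 on the log2 scale, below the 4.89 of the members. With CCM added to LPS in WT, 9 of the 15 DNA sensing genes and 7 of the 15 interferon genes fell and none rose, against 7.78% of all genes tested that fell, with medians of -0.31 and -0.32. In the single fit over 36 libraries 1 gene of each list was called lower, Samhd1 and Irf1 (adjusted p = 0.0499 for both), and 0.07% of all genes were. Ifnb1 fell by 2.14 (SE 0.35, adjusted p = 0.0032) and Il1b by 0.48 (SE 0.13, adjusted p = 0.032). In KO none of either list was called by edgeR under that comparison. Without replicate 6 it called 1 of each, Il18 and Usp18 (0.95% of genes lower). DESeq2 called 1 and 2 (1.08% lower), and voom 8 and 3 (3.71% lower).

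Across the 8 groups some members followed nearly the same pattern. The root mean square difference of the centred log2 group means was smallest between Ifi209 and Ifi211 (0.083), and Ifi203 was 0.233 from Ifi211. Ifi205 and Ifi207 were farthest apart (3.84). Of 11626 other genes with a mean log2 CPM of at least 1, the 5 nearest to the mean pattern of the family were Icam1 (0.101), Oasl2 (0.117), Cst7 (0.132), Il1rn (0.143) and Gm12250 (0.143). Icam1, an adhesion molecule, went from 33.7 ± 1.62 CPM in WT vehicle to 1120.6 ± 58.1 under LPS and 864 ± 60.8 under LPS+CCM. Taken singly, the nearest gene was Il6 for Ifi205 (0.113), Usp18 for Ifi213 (0.205), Gm20559 for Ifi204 (0.045), Ddx60 for Ifi203 (0.103), Scimp for Mndal (0.124), Snx2 for Ifi207 (0.083), and Icam1 for both Ifi209 (0.099) and Ifi211 (0.097). Without KO replicate 6 the nearest gene became Ublcp1 for Ifi207 (0.067) and Gm12250 for Ifi209 (0.112) and stayed as named for the other 6, and of the 5 genes nearest to the mean pattern Il1rn gave way to Apol9b (0.096). These are descriptions over 8 group means.

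Some of the 8 genes share long stretches of transcript sequence, which limits how far their counts can be told apart. Of all 100-base windows in the GENCODE vM21 transcripts of Ifi211, 56.9% also occurred in a transcript of another gene, 37.2% in Ifi205 and 19.6% in Ifi204. The share was 16.9% for Ifi209 (with Ifi214), 15% for Ifi205 (with Ifi211) and 10.7% for Ifi204, and it was 6.38% or less for Mndal, Ifi203, Ifi207 and Ifi213. Levels of Ifi211 are therefore the least certain of the 8, and Ifi207, with 0.79%, the most separate. Mndal (chr1:173849126-173942491) encloses Ifi211 (chr1:173896345-173913046) and reaches into Ifi203 (chr1:173920407-173942672) on the same strand, with 0 and 37 shared exonic bases.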

How the data were processed

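The values used are the raw gene counts (mm10) that the authors deposited for 36 libraries, from reads trimmed with fastp, aligned with HISAT2 2.0.5 and counted with featureCounts 1.5.0-p3, per the submitters' processing notes. Strand setting and treatment of multi-mapping reads are not given in the sources used here, so reads shared by near-identical genes may be split or lost. No count column was left unmapped (0). Here, counts were filtered by edgeR 4.0.16 (filterByExpr), scaled by TMM and tested per comparison with the quasi-likelihood test, with Benjamini-Hochberg adjustment over all genes tested. A gene was called at adjusted p of at most 0.05. DESeq2, the tool the study used, was run here in version 1.42.0 as an alternative, as were limma 3.58.1 (voom), other scalings, no filter, 1 fit over all libraries, a replicate block and leaving out replicates. The edgeR fit was tested on simulated counts. The p-values set each difference against the spread between these libraries as the fit estimates it. Each SE of edgeR is the size of the log2 change over the square root of its F statistic, and the intervals are built from it. Replicate numbers paired the samples in 3 comparisons, from the correlation of their deviations (LPS in KO 0.313 to 0.876, CCM under LPS in WT 0.173 to 0.39, CCM unstimulated in KO 0.361 to 0.903). The median correlation between unlike numbers was 0.209, -0.154 and 0.265 in the same order. No correlation was taken without KO replicate 6. Named genes were the 8 members, the other PYHIN genes in the table, from each of 2 pathway lists the called genes with the largest and smallest change under LPS in WT, the 5 genes nearest to the mean pattern of the members and the 1 nearest to each, Arntl and Il1b. The members and lists were chosen with earlier results of these data known. Promoters are from RefSeq.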

Additional observations from a re-analysis of the deposited data

Results flagged for a closer look

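Among the 32 sets of 6 KO libraries (8 members in 4 treatments), 8 held a library that lay far from the other 5; about 1 in 20 sets is flagged by chance. Of these, 7 concern KO replicate 6 as the lowest library: Ifi203 under vehicle (9.14 CPM), Ifi204 under vehicle (60.7 CPM) and CCM (49.4 CPM), Ifi207 under vehicle (58.3 CPM), CCM (44.6 CPM) and LPS (140.3 CPM), and Ifi209 under vehicle (7.98 CPM). The other is Ifi205 in KO vehicle replicate 2 as the highest, at 4.55 CPM, in a library where Il1b was also highest of its group, at 24 CPM against a median of 4.12 CPM.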

How the results depend on the processing

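Counts of members called moved as follows. With all 36 libraries in 1 fit, 0 were called for CCM under LPS in WT (8 in the fit of those 2 groups), 1 for the same in KO (0 in the fit of those 2 groups) and 1 for CCM without LPS in KO. For CCM under LPS in KO, DESeq2 called 2, voom with quality weights 8, the replicate block 7, and the block without KO replicate 6, added after seeing the data, 4; same-numbered samples did not deviate together in every pair there (lowest correlation -0.135). For CCM without LPS in KO, DESeq2 called 1, voom 6, the block 4, and the block without KO replicate 6 called 6; leaving out 1 replicate gave 0 to 4, the 4 without replicate 6. For the LPS by CCM interaction in WT, DESeq2 called 2, voom 1 and no filter 1, beside 688 of 14747, 447 of 14747 and 721 of 27859 genes. The replicate block changed no other member's call. For CCM without LPS in KO, calls over all genes numbered 0 by edgeR, 42 by DESeq2, 299 by voom and 14 in the single fit. They numbered 429 with the block, 141 without replicate 6 and 729 with both changes. For CCM under LPS in KO, the block without KO replicate 6 called 304 of 13429 genes. Over all genes, calls for CCM under LPS in KO numbered 15 by edgeR, 200 by DESeq2, 768 by voom, 285 in the single fit and 777 with the block, those for CCM under LPS in WT 1621, 17 in the single fit and 3220 with the block, and those for LPS in KO 6433 and 9774 with the block. With total counts alone, the summed level of the members was 408 (WT vehicle), 361 (WT CCM), 4140 (WT LPS) and 3195 CPM (WT LPS+CCM), and Ifi207 in KO lost its LPS call. For CCM without LPS in WT, Ifi209 turned to 0.018 under voom, and leaving out 1 replicate gave -0.76 to 0.25 for Ifi205, -0.23 to 0.087 for Ifi209 and -0.16 to 0.077 for Ifi211. Called LPS changes kept their direction in every alternative run, and of the 5 nearest genes 4 remained without KO replicate 6. Ifi205 and Ifi213 rest on few counts without LPS, and 3 WT libraries a group limit small differences.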
